A study of Mus musculus with 9 samples.

Results

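The erythroid regulators and transporters described here are 10 genes, Klf1, Hemgn, Epor, Trim10, Trim58, Slc38a5, Car1, Car2, Cldn13 and Icam4, out of 37316 genes named on the array and 29410 genes tested. They were selected on known links to the red-cell lineage with results of these same arrays in view, and Slc38a5 was chosen by its large drop at 1 day after irradiation. All 10 genes were found, with 14 probes between them, and all 14 probes passed the filter on dim signals. Trim10 and the probe A_55_P2099952 of Car1 passed it without being well above background on any array of day 1.

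Red cells arise in the bone marrow from a progenitor that can also give rise to megakaryocytes, the large cells that shed platelets. Erythropoietin, acting through its receptor, keeps erythroid precursors alive, while transcription factors such as Gata1 and Klf1 switch on the genes for globin, haem synthesis and the red-cell membrane. Carbonic anhydrases, amino acid transporters and surface proteins then equip the maturing cell, which finally loses its nucleus.

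RNA came from mature megakaryocytes (mMKs) of male mouse bone marrow, enriched by consecutive selection for CD41 and CD42d after lysis of red cells. The control group (Ctrl) was not irradiated, and the other groups were taken 1 day (1 dpi) and 3 days (3 dpi) after 5 Gy of γ-rays to the whole body. Each group has 3 arrays, 9 in all, from separate experiments with separate donors. The sample labels give neither strain nor age, beyond a match in background, while the study's methods name wild-type C57BL/6 mice for its control and irradiated groups. No genetic change is named for any group.

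Of the megakaryocyte markers, with Pf4 the brightest, 14 of 14 were well above background on all 9 arrays. So were 12 of 12 neutrophil, 12 of 12 macrophage, 12 of 12 stromal and 9 of 9 T and NK cell markers, and detection alone does not single out the labelled cell type. The values below are those of bulk RNA, in which a lower value can mean fewer cells of a type or less RNA per cell, and these cannot be told apart.

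Each array carries 59305 spots besides its controls, and 0 spots were saturated. Well above background were 69.1%, 79.5% and 80.8% of spots on Ctrl replicates 1, 2 and 3, then 72.3%, 74.8% and 75.6% at 1 dpi and 81.8%, 81.6% and 81.8% at 3 dpi. The log2 intensity at the 75th percentile stood at 10.03, 10.62 and 10.66 in Ctrl, 9.33, 9.45 and 9.43 at 1 dpi and 10.37, 10.55 and 10.53 at 3 dpi. Ctrl replicate 1 was the only array on its slide, while the other 8 shared a slide, and it correlated with the other Ctrl arrays at 0.987 across probes against 0.998 between those. The number of arrays limits the precision of every value.

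Levels are given as a percentage of the intensity at the 75th percentile of the same array, for replicates 1, 2 and 3 in turn. A level of one probe cannot be set against that of another, because probes differ in how well they bind. The brightest gene of a list is the one with the strongest signal, not the most RNA, and a summed level is a sum of signals in which bright probes weigh most. Differences are log2 fold changes ± SE with 3 arrays in each group. A gene is called when its limma p, adjusted over all genes tested by Benjamini and Hochberg, is under 0.05 and its change is at least 2-fold.

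Most of the 10 genes had lower values after irradiation and were still low on day 3. The median log2 difference over the 10 genes was -2.11 at 1 dpi and -1.71 at 3 dpi against Ctrl, beside 0.25 and 0.11 for all genes tested, which is -2.36 and -1.82 relative to all genes. From 1 to 3 dpi the median was 0.45, or 0.44 with Trim10 at its bound, beside -0.11 for all genes, which is 0.56 relative to all genes. Over the 9 genes other than Slc38a5, which was picked for its day 1 value, the medians were -2.09, -1.69 and 0.41. All these medians are descriptions. Without Ctrl replicate 1 the medians of the 10 genes against Ctrl were -2.04 and -1.61.

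At 1 dpi, 7 of the 9 genes other than Slc38a5 met the call rule as lower and Hemgn met it as higher, beside 2.87% of all genes lower and 12.3% higher. The genes were chosen with this contrast in view, so nothing is read from that count, and the day 1 differences below carry no test. At 3 dpi against Ctrl, 6 of the 9 were called lower, namely Klf1, Trim10, Car1, Car2, Cldn13 and Icam4, beside 1.82% of all genes lower and 6.98% higher. Between both days, Epor and Cldn13 were called higher at 3 dpi and Hemgn, by its repeat probe, lower, so 3 of 9 genes, beside 3.97% of all genes higher and 4.82% lower. With repeat probes left out, which was chosen after seeing the data, 2 of 9 are called. By adjusted p alone, 7 of the 9 were under 0.05 at 3 dpi against Ctrl, beside 32.0% of all genes, and 8 of the 9 between both days, beside 44.6% of all genes. The 8 include Trim10, which was well above background on 0 of 3 arrays at 1 dpi, so nothing is read from its p. These later comparisons share arrays with the contrast that was in view. Under other scalings the 6 genes kept their calls at 3 dpi, except Trim10 after normexp background correction with quantile normalization (-0.89).

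The split of all called genes into higher and lower depends on the scaling. Of 4468 genes called at 1 dpi 81.1% were higher, against 48.8% when arrays were scaled to their median, 56.3% after quantile normalization, 68.7% after normexp background correction with quantile normalization and 49.8% in the deposited log2 matrix. Of 2587 genes called at 3 dpi against Ctrl 79.4% were higher, against 66.9% in the deposited matrix. Of 2588 genes called between both days 45.2% were higher at 3 dpi, against 67.2% with median scaling, 62.9% after quantile normalization and 62.6% in the deposited matrix.

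**Figure D1:**
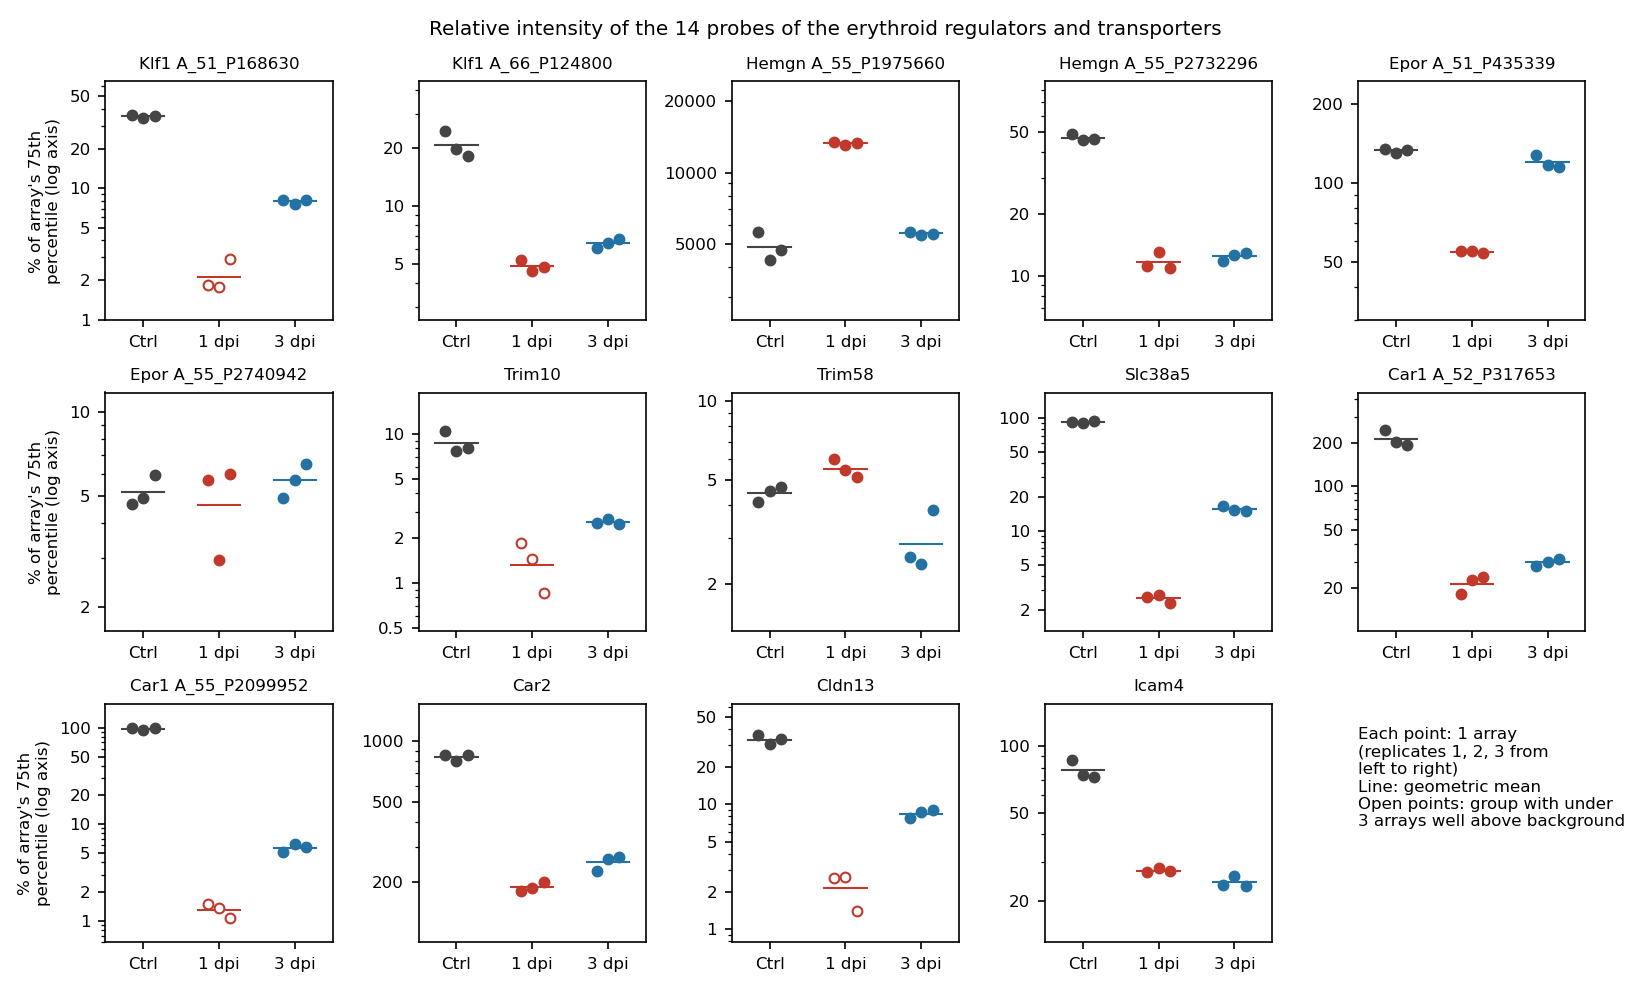
Level of each of the 14 probes on each array, as a percentage of the array's 75th percentile (log axis), with a line at the geometric mean of each group and open points where under 3 arrays of the group were well above background. The Ctrl arrays of Slc38a5 lie between 90.3% and 93.7%, its 1 dpi arrays between 2.30% and 2.67% and its 3 dpi arrays between 15.1% and 16.6%.

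The promoters of these genes were searched for the letters that erythroid factors are known to bind. The genes were selected on known links to the red-cell lineage, so nothing is read from the shares below. The RefSeq table (GRCm38.p6) holds the promoter of 7 of the 10 genes, namely Klf1, Hemgn, Epor, Trim10, Trim58, Slc38a5 and Icam4. In the 250 bases before the start, 6 of 7 hold a GATA match, written AGATAA, with T also taken as its first letter and G as its last, on either strand, beside 26.5% of 32851 promoters. A CACCC-type match, CCNCNCCCN on either strand, is found in 4 of 7, beside 45.8% of all promoters, and no GATA match overlaps a CACCC-type match in these 7. In Hemgn and Slc38a5 the CACCC-type matches lie wholly or mostly in runs of G. The exception for GATA is Slc38a5, where these letters are not in the window. Trim58, whose value was 0.30 ± 0.18 at 1 dpi against Ctrl, holds a GATA match 247 to 242 bases before the start. Whether the matches bear on the changes was not tested.

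The following 4 promoters stand for genes that were low on day 1, with each GATA or CACCC-type match in capitals. Klf1 lies on the plus strand at chr8:84901732-84901981, Epor on the minus strand at chr9:21963577-21963826, Icam4 on the plus strand at chr9:21029182-21029431 and Trim10 on the plus strand at chr17:36869324-36869573.
Klf1 promoter: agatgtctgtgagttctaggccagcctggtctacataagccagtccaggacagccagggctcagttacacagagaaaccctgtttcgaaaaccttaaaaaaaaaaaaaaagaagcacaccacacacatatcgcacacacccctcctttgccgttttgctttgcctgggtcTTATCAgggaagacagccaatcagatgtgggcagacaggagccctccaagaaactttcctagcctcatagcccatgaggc
Epor promoter: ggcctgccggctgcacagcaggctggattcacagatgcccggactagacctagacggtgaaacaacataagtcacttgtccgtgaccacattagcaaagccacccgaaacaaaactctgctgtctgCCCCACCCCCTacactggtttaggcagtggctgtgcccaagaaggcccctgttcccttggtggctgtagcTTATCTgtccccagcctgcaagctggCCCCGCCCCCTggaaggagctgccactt
Icam4 promoter: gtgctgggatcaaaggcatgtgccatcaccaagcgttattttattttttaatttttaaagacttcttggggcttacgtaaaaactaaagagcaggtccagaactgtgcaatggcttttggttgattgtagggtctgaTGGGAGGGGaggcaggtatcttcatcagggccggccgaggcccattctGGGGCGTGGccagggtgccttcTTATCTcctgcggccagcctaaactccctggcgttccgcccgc
Trim10 promoter: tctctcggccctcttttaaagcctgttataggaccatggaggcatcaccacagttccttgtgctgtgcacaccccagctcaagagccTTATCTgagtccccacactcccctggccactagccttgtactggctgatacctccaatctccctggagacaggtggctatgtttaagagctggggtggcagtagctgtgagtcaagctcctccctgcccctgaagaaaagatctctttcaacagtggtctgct

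The GATA match lies 80 to 75 bases before the start in Klf1, 54 to 49 in Epor, 43 to 38 in Icam4 and 163 to 158 in Trim10. Klf1 and Trim10 show no CACCC-type match in this window. A match is a run of letters, and whether any factor binds there was not measured.

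Klf1 encodes the erythroid Krüppel-like factor, which activates adult β-globin and many other red-cell genes. Its probe A_66_P124800, the brighter of a pair on average, read 24.7%, 19.9% and 18.1% in Ctrl, 5.26%, 4.58% and 4.82% at 1 dpi and 6.08%, 6.45% and 6.76% at 3 dpi. The groups do not overlap, with Ctrl highest and 1 dpi lowest. The difference from Ctrl was -2.09 ± 0.12 at 1 dpi, and at 3 dpi Klf1 fell by 1.69 ± 0.12 (adjusted p = 3.04e-05), with all 3 arrays below all Ctrl arrays. From 1 to 3 dpi the value was 0.40 ± 0.12 higher (adjusted p = 0.0299), which is under 2-fold and so not called.

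The other Klf1 probe, A_51_P168630, read 36.1%, 34.0% and 35.7% in Ctrl, 1.83%, 1.77% and 2.90% at 1 dpi and 8.16%, 7.64% and 8.18% at 3 dpi. At 1 dpi it was well above background on 2 of 3 arrays. Its order of groups is that of the first probe, but the day 1 difference is larger, -4.06 ± 0.18, as is the step from day 1 to day 3, 1.92 ± 0.18. At 3 dpi its difference from Ctrl was -2.14 ± 0.18. Both probes lie on chromosome 8 of mm9, at 87427100 to 87427159 and 87428881 to 87428940. The deposited matrix uses A_51_P168630, and with it the step from 1 to 3 dpi is 2.21 and called, so the call of Klf1 between both days rests on the probe.

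Hemgn encodes hemogen, a nuclear protein of blood-forming cells and a target of Gata1. Its probes lie next to each other on chromosome 4 of mm9, at 46407248 to 46407307 and 46407366 to 46407425, and gave opposite results at 1 dpi. They are shown because one of them carries a simple repeat. The lines give bases 11 to 40 of each 60-base probe, with the part of the GT repeat in capitals, a repeat of 18 copies (36 bases) over the whole probe.
Hemgn A_55_P1975660: acacatagacaataGTGTGTGTGTGTGTGT
Hemgn A_55_P2732296: gtggtttcactgaaacactgcagcaatcac

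The repeat probe A_55_P1975660, which stands for the gene since it is the brighter, read 5633%, 4306% and 4722% in Ctrl, 13409%, 13108% and 13347% at 1 dpi and 5652%, 5466% and 5537% at 3 dpi. The 1 dpi arrays lie above all others, while Ctrl and 3 dpi overlap. The probe without the repeat, A_55_P2732296, read 49.1%, 46.1% and 46.3% in Ctrl, 11.2%, 13.1% and 10.9% at 1 dpi and 11.8%, 12.6% and 12.9% at 3 dpi. Here all irradiated arrays lie below all Ctrl arrays, and both irradiated groups overlap.

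By the repeat probe, Hemgn differed from Ctrl by 1.45 ± 0.10 at 1 dpi and 0.19 ± 0.10 at 3 dpi (adjusted p = 0.174, not called), and it fell by 1.26 ± 0.10 from 1 to 3 dpi (adjusted p = 7.57e-05). By the other probe the differences were -2.01 ± 0.09, -1.92 ± 0.09 and 0.09 ± 0.09, the direction that the deposited matrix also gives (-2.19, -1.90 and 0.30), and the mean of both probes was -0.28, -0.86 and -0.59. With repeat probes left out, an alternative chosen after seeing the data, 7 of 9 members are called lower at 3 dpi against Ctrl, Hemgn being the addition. The call between both days is also lost under quantile normalization (-0.80) and under normexp with quantile normalization (-0.78).

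Other probes with a GT repeat gave values like those of the repeat probe of Hemgn. The array holds 94 kept probes with at least 10 copies of a 2-base repeat, of which 72 lay above 0 at 1 dpi against Ctrl. For the 48 of them with GT on the probe strand, the Hemgn probe included, the median difference was 1.45 at 1 dpi (range 1.28 to 1.62, 48 of 48 above 0), 0.19 at 3 dpi against Ctrl and -1.26 from 1 to 3 dpi. The part of the repeat in the Hemgn value was not tested.

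Epor encodes the receptor of erythropoietin. Its bright probe A_51_P435339 read 135%, 130% and 133% in Ctrl, 55.2%, 55.1% and 53.9% at 1 dpi and 128%, 116% and 115% at 3 dpi. All 1 dpi arrays are far below the rest, and the 3 dpi arrays come close to Ctrl without overlapping it. The difference from Ctrl was -1.28 ± 0.06 at 1 dpi and -0.15 ± 0.06 at 3 dpi (adjusted p = 0.107, not called). From 1 to 3 dpi Epor rose by 1.13 ± 0.06 (adjusted p = 1.86e-05), higher in 3 of 3 arrays.

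A dim Epor probe, A_55_P2740942, shows no such pattern. It read 4.69%, 4.92% and 5.94% in Ctrl, 5.71%, 2.93% and 5.98% at 1 dpi and 4.90%, 5.72% and 6.54% at 3 dpi. All groups overlap, with differences of -0.15 ± 0.27, 0.14 ± 0.27 and 0.29 ± 0.27. Averaged over both probes the step from 1 to 3 dpi is 0.71 and no longer called.

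Trim10 and Trim58 are members of the tripartite motif family, in which Trim58 is known for the loss of dynein before the nucleus is expelled and Trim10 for terminal erythroid differentiation. Trim10 read 10.5%, 7.68% and 7.98% in Ctrl, 1.84%, 1.45% and 0.851% at 1 dpi and 2.52%, 2.69% and 2.47% at 3 dpi. At 1 dpi it was well above background on 0 of 3 arrays, so only bounds can be given there. Trim10 was at least 4.70-fold lower at 1 dpi than in Ctrl and at least 1.39-fold higher at 3 dpi than at 1 dpi. The limma fit of the latter step, without the bound, gave an adjusted p of 0.0215 (not called). That p is no test of the bound, since the 1 dpi signal was not well above background, and nothing is read from it. The call rule is met for this step with median scaling, with quantile normalization, in the deposited matrix, relative to the median of all genes and without 1 dpi replicate 1 or 2, each time against a 1 dpi signal not well above background, so no exact step is given. For the bounds, each array of the dimmer group enters with the gene's own signal or with the lowest signal of any probe well above background, whichever is higher, and the brighter group with its mean. At 3 dpi Trim10 fell by 1.76 ± 0.27 against Ctrl (adjusted p = 0.00174), with all 3 arrays below all Ctrl arrays.

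In Trim58 the groups stood in another order. It read 4.14%, 4.56% and 4.72% in Ctrl, 5.99%, 5.44% and 5.11% at 1 dpi and 2.54%, 2.38% and 3.84% at 3 dpi. The 1 dpi arrays are the highest and the 3 dpi arrays the lowest, without overlap. The difference at 1 dpi, 0.30 ± 0.18, turns to -0.01 with median scaling, -0.11 with quantile normalization, -0.08 with normexp and quantile normalization and -0.11 in the deposited matrix. At 3 dpi the difference was -0.65 ± 0.18 against Ctrl (adjusted p = 0.0253) and -0.95 ± 0.18 against 1 dpi (adjusted p = 0.00372), both under 2-fold and so not called. Without 1 dpi replicate 3 or 3 dpi replicate 3 the latter passes 2-fold (-1.001 and -1.16). Over all alternatives it ran from -1.16 to -0.26, and the difference from Ctrl at 3 dpi from -0.86 to -0.34.

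Slc38a5 encodes a sodium-coupled transporter of glutamine and other neutral amino acids. It read 92.1%, 90.3% and 93.7% in Ctrl, 2.61%, 2.67% and 2.30% at 1 dpi and 16.6%, 15.2% and 15.1% at 3 dpi, and was well above background on all 9 arrays. The replicates lie close together and the groups far apart, with 1 dpi lowest and 3 dpi between. The level at 1 dpi was 36.5-fold lower than in Ctrl, a log2 difference of -5.19 ± 0.08. At 3 dpi it was 5.89-fold lower than in Ctrl (-2.56 ± 0.08) and 6.19-fold higher than at 1 dpi (2.63 ± 0.08). After normexp background correction with quantile normalization the log2 differences of Slc38a5 were -3.63 and -2.15 against Ctrl and 1.48 between both days, the smallest of all settings. The gene was picked for its day 1 fall, and none of its differences was tested.

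Car1 and Car2 encode cytosolic carbonic anhydrases, which turn carbon dioxide and water into bicarbonate and protons, and Car1 is abundant in red cells. The Car1 probe A_52_P317653 read 245%, 203% and 191% in Ctrl, 18.1%, 22.7% and 23.7% at 1 dpi and 28.4%, 30.4% and 31.8% at 3 dpi. All irradiated arrays are far below Ctrl, and those of 3 dpi lie above those of 1 dpi. The difference from Ctrl was -3.31 ± 0.13 at 1 dpi, and at 3 dpi Car1 fell by 2.81 ± 0.13 (adjusted p = 3.45e-06). The step from 1 to 3 dpi, 0.50 ± 0.13 (adjusted p = 0.0174), was under 2-fold.

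The second Car1 probe, A_55_P2099952, read 98.6%, 93.6% and 97.8% in Ctrl, 1.49%, 1.36% and 1.07% at 1 dpi and 5.10%, 6.26% and 5.82% at 3 dpi. It was well above background on 0 of 3 arrays at 1 dpi. By this probe Car1 was at least 52.5-fold lower at 1 dpi than in Ctrl and at least 3.10-fold higher at 3 dpi than at 1 dpi, with a difference of -4.08 ± 0.13 at 3 dpi against Ctrl. The deposited matrix uses this probe.

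Car2 read 857%, 798% and 853% in Ctrl, 182%, 188% and 200% at 1 dpi and 228%, 263% and 266% at 3 dpi. Its groups do not overlap and have the order of those of Car1. The difference was -2.14 ± 0.08 at 1 dpi, and at 3 dpi Car2 fell by 1.73 ± 0.08 against Ctrl (adjusted p = 3.29e-06). The step from 1 to 3 dpi, 0.41 ± 0.08 (adjusted p = 0.00489), was under 2-fold. The probes of Car1 and Car2 both lie on chromosome 3 of mm9, at 14767486 to 14770230 and 14900206 to 14900265, where the genes are neighbours in a carbonic anhydrase cluster.

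Cldn13 is a claudin of the mouse, from a family best known for tight junctions, and is expressed in erythroid cells of the spleen and marrow. It read 35.6%, 30.4% and 33.2% in Ctrl, 2.58%, 2.61% and 1.41% at 1 dpi and 7.69%, 8.62% and 8.95% at 3 dpi. At 1 dpi it was well above background on 2 of 3 arrays, and the groups do not overlap. The difference was -3.96 ± 0.23 at 1 dpi, and at 3 dpi Cldn13 fell by 1.97 ± 0.23 against Ctrl (adjusted p = 4.28e-04). From 1 to 3 dpi it rose by 1.99 ± 0.23 (adjusted p = 4.26e-04), higher in 3 of 3 arrays, and by 0.98, no longer called, after normexp with quantile normalization.

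Icam4 encodes the Landsteiner-Wiener glycoprotein, through which erythroblasts attach to the macrophage of an erythroblastic island. It read 86.6%, 74.4% and 72.8% in Ctrl, 26.9%, 28.1% and 27.1% at 1 dpi and 23.6%, 25.9% and 23.3% at 3 dpi. The irradiated arrays form a narrow band far below Ctrl. The difference was -1.50 ± 0.08 at 1 dpi, and at 3 dpi Icam4 fell by 1.68 ± 0.08 against Ctrl (adjusted p = 4.74e-06). Between both days it differed by -0.17 ± 0.08 (adjusted p = 0.129, not called), a value that turns to 0.02 with median scaling.

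**Figure D2:**
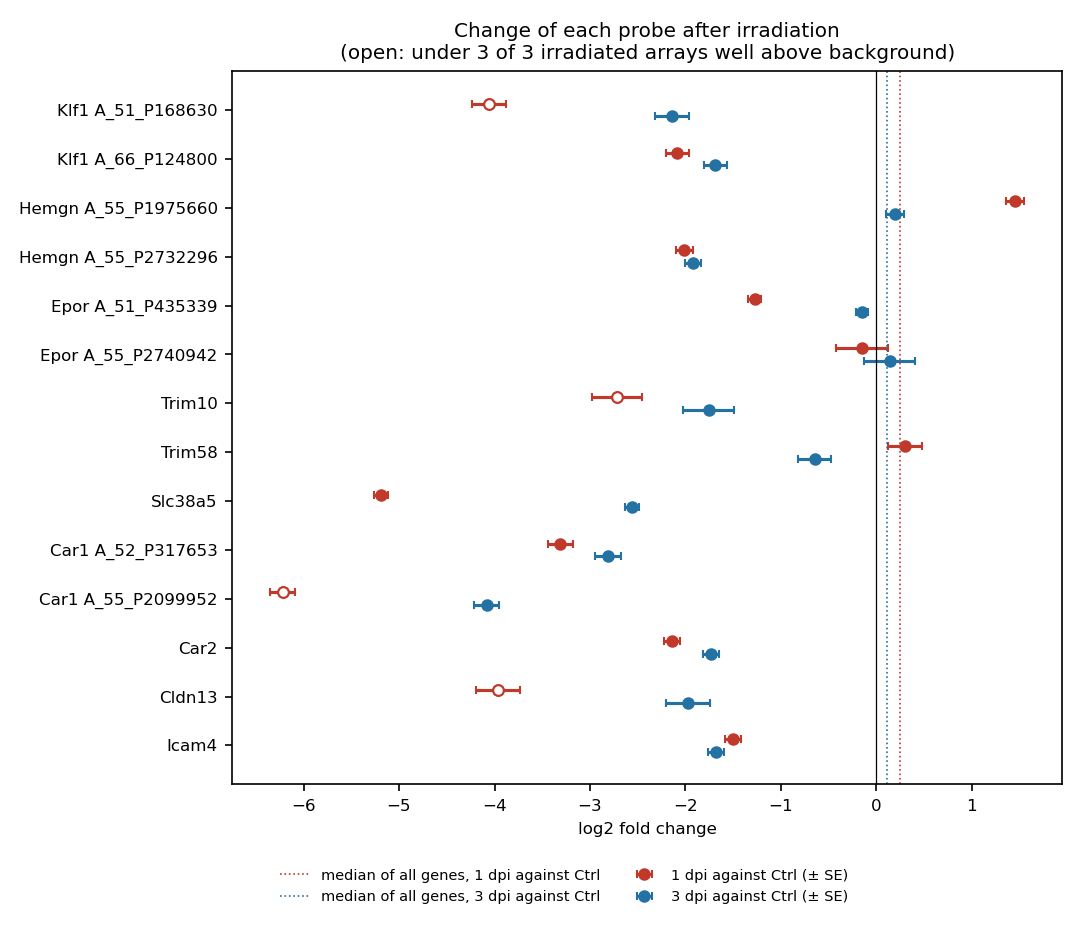
Log2 fold change against Ctrl of each of the 14 probes at 1 dpi (red) and 3 dpi (blue), with SE over 3 arrays per group, open where under 3 of 3 irradiated arrays were well above background. Dotted lines mark the median of all genes, 0.25 and 0.11, and the repeat probe of Hemgn at 1 dpi, 1.45, lies far to the right of the other Hemgn probe, -2.01.

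With 3 arrays per group no exact 2-sided permutation test can reach a p below 0.10, so the tests of single genes are those of the limma fit over all genes. Ctrl replicate 1, alone on its slide, was the highest or lowest Ctrl array for several of these genes, such as Klf1 and Car1. Without it the 3 dpi counts were the same, 6 called lower at 3 dpi and 3 called between both days. A fit with the slide as a block gives the same values as leaving that array out.

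Over the 9 arrays, the genes whose log2 values followed the mean of the 10 standardised members most closely were Vpreb1, Chd6, Prdm11, Habp4, Arl5c, Nxnl2, an unnamed transcript of chromosome 13, Wdr45b, Ccr7 and Chst3, with Pearson's r from 0.992 to 0.996. The points fall into 3 groups, so r mostly reflects the group means, and it is given with no p. Among the members themselves, r with that mean, of which each is a part, was 0.991 for Klf1, 0.987 for Car1 and Car2, 0.956 for Icam4, 0.943 for Trim10, 0.890 for Cldn13, 0.885 for Slc38a5, 0.591 for Epor, -0.05 for Trim58 and -0.75 for Hemgn. With repeat probes left out, Hemgn stood at 0.980 against the mean of the others, and 4 of the 10 closest genes were the same.

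Of 22 erythroid transcription factors and cofactors tested, 19 at 1 dpi and 15 at 3 dpi had an adjusted p under 0.05 against Ctrl, beside 55.9% and 32.0% of all genes. In all 3 were called lower at 1 dpi (13.6%, beside 2.87% of all genes) and 4 at 3 dpi against Ctrl (18.2%, beside 1.82% of all genes), and between both days 0 were called by limma and 0 by the methods' t-test with adjustment, with 12 at an unadjusted and 10 at an adjusted p under 0.05. The list's median was -0.36 and -0.46 against Ctrl, or -0.61 and -0.58 relative to all genes. Sox6, which silences embryonic globin, fell by 2.79 ± 0.15 at 1 dpi and by 2.53 ± 0.15 at 3 dpi, while its 3 probes ranged from -3.01 to -0.31 at 1 dpi. Zfpm1, the cofactor of Gata1 known as Fog1, fell by 1.33 ± 0.08 and by 1.65 ± 0.08, with the day 1 call lost in the deposited matrix (-0.59) and over the mean of its probes (-0.95).

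Gata1 itself had values of -0.67 ± 0.10 at 1 dpi and -0.80 ± 0.10 at 3 dpi against Ctrl, under 2-fold. Tal1 was -0.68 ± 0.07 at 1 dpi and fell by 1.08 ± 0.07 at 3 dpi, as Gfi1b did by 1.19 ± 0.09. Nfe2 was -0.37 ± 0.09 and -0.54 ± 0.09. Runx1 was -1.001 ± 0.10 at 1 dpi, a call that is lost under quantile normalization (-0.99) and turns to 0.05 over the mean of its probes. Between both days Gata1 (-0.13) and Nfe2 (-0.17) turn to 0.07 and 0.02 with median scaling.

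Most genes of erythropoietin signalling were not called, which also holds for all genes. Of 18 genes, 16, 12 and 10 had an adjusted p under 0.05 at 1 dpi and 3 dpi against Ctrl and between both days, beside 55.9%, 32.0% and 44.6% of all genes. In all 1 was called higher and 2 lower at 1 dpi, 1 higher and 1 lower at 3 dpi, and 1 higher between both days, with medians of 0.17, 0.26 and 0.02, or -0.08, 0.15 and 0.13 relative to all genes. The called shares of all genes were 12.3% higher and 2.87% lower at 1 dpi, and 6.98% and 1.82% at 3 dpi. Between both days they were 3.97% and 4.82%. Kit, the receptor of stem cell factor, fell by 1.08 ± 0.11 and by 1.32 ± 0.11 against Ctrl, with the day 1 call lost without Ctrl replicate 1 (-0.99). Tfrc, the transferrin receptor, was -1.02 ± 0.13 at 1 dpi and is not called without that array (-0.91), while its other probe gave 0.13. Cish, a feedback inhibitor induced by Stat5, was 1.00 ± 0.06 at 1 dpi and 0.69, not called, with median scaling.

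Erfe, the erythroid hormone that lowers hepcidin, was 1.04 ± 0.15 at 3 dpi against Ctrl, a call lost with median scaling (0.92), and the probe that stands for it was well above background on 0 of 3 arrays at 1 dpi. Its other probe gave 0.59 at 3 dpi against Ctrl. From 1 to 3 dpi that probe gave -0.37, where the first gave the 1 call of the list. Jak2 and Stat5a, which carry the receptor's signal, were -0.12 and -0.53 at 1 dpi by their brighter probes. Their other probes gave 0.84 and 0.65, and the deposited matrix gave 0.78 and 0.67. At 3 dpi against Ctrl Jak2 and Stat5a were 0.06 and -0.57 by the brighter probes, with Jak2 at -0.06 under median scaling. By these probes neither was called in any of these comparisons.

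**Figure D3:**
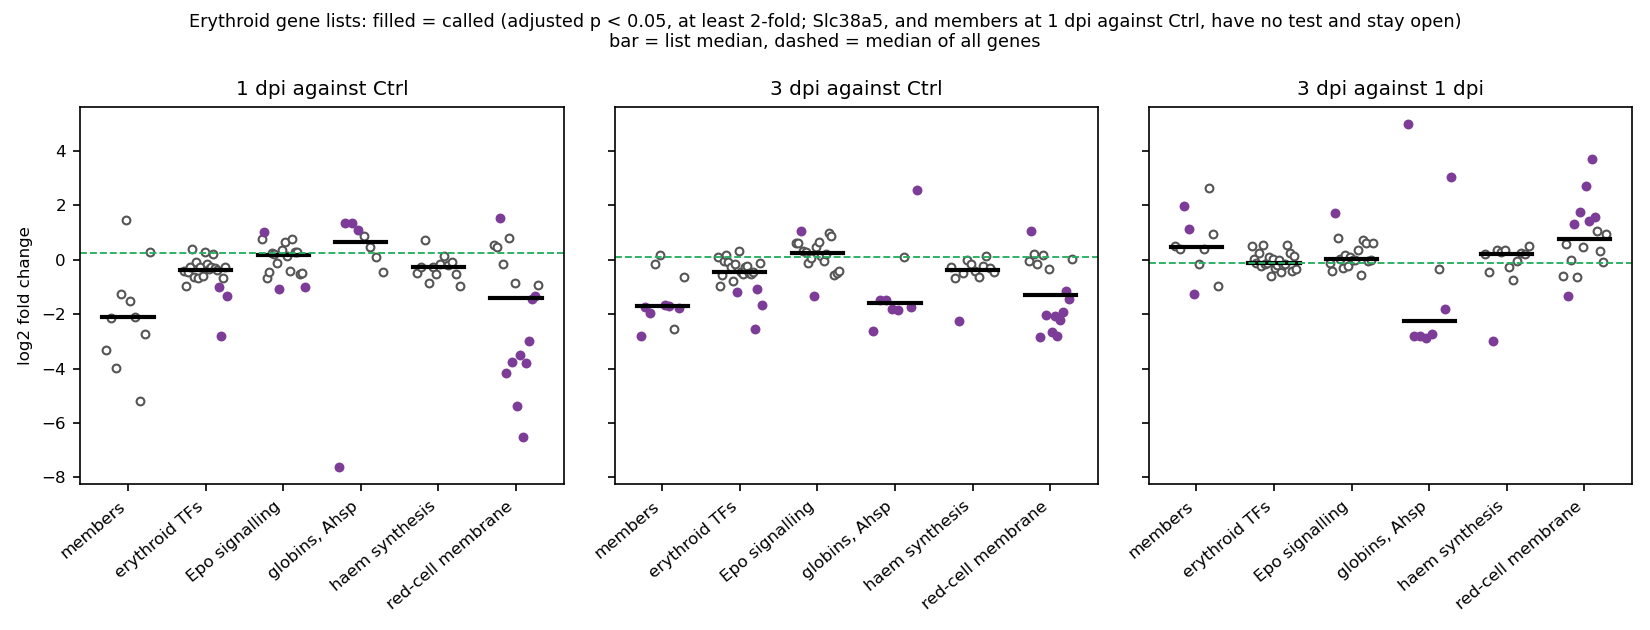
Log2 fold change of each gene of the members and of 5 erythroid gene lists in the 3 comparisons, with bars at list medians, a dashed line at the median of all genes and filled points for called genes. The red-cell membrane genes spread down to -6.51 at 1 dpi, while the globins are split, from -7.62 for Ahsp to 1.34 for Hba-a2.

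Of 16 red-cell membrane genes tested, 9 were called lower and 1 higher at 1 dpi, and again 9 lower and 1 higher at 3 dpi against Ctrl, while 6 were called higher and 1 lower from 1 to 3 dpi. Over all genes 2.87% were called lower and 12.3% higher at 1 dpi, and 1.82% and 6.98% at 3 dpi against Ctrl. From 1 to 3 dpi 3.97% of all genes were called higher and 4.82% lower. The medians of the list were -1.39, -1.28 and 0.77 (0.53 with bounded genes at their bound), or -1.64, -1.40 and 0.88 relative to all genes. Slc4a1, the anion exchanger band 3, fell by 3.78 ± 0.12 at 1 dpi and by 2.21 ± 0.12 at 3 dpi, and rose by 1.58 ± 0.12 from 1 to 3 dpi. Kel, well above background on 0 of 3 arrays at 1 dpi, was at least 33.8-fold lower there, fell by 2.64 ± 0.07 at 3 dpi and was at least 5.41-fold higher at 3 than at 1 dpi. Rhd, with 2 of 3 arrays well above background at 1 dpi, fell by 6.51 ± 0.17 at 1 dpi, and its value at 3 dpi was -2.82 ± 0.17 and called. Its other probe gave -2.60 at 1 dpi and 0.37 from 1 to 3 dpi, where the first gave 3.70. The 1 membrane gene called higher at 3 dpi against Ctrl had probes from -2.15 to 1.05.

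Tspo2 fell by 1.33 ± 0.06 and by 1.43 ± 0.06 against Ctrl. Dmtn, the actin-bundling dematin, was 1.53 ± 0.07 at 1 dpi by its brighter probe, but -1.65 by its other probe and -2.01 in the deposited matrix. Its step of -1.33 ± 0.07 from 1 to 3 dpi was 0.57 by the other probe and 0.83 in that matrix. The summed level of the list was 4180%, 3824% and 3717% in Ctrl, 4021%, 3990% and 3871% at 1 dpi and 3292%, 3100% and 3103% at 3 dpi, with Epb41, which many cell types express, the brightest.

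The globin list was split. Of 8 genes tested, 3 were called higher and 1 lower at 1 dpi, 1 higher and 6 lower at 3 dpi against Ctrl, and 2 higher and 5 lower from 1 to 3 dpi, with medians of 0.67, -1.60 and -2.27, or 0.42, -1.71 and -2.16 relative to all genes. For all genes the called shares were 12.3% higher and 2.87% lower at 1 dpi, and 6.98% and 1.82% at 3 dpi against Ctrl. From 1 to 3 dpi they were 3.97% and 4.82%. Hbb-y is the 1 gene called higher at 3 dpi against Ctrl and, with Ahsp, among the 2 from 1 to 3 dpi. It passed the filter only through the 3 dpi arrays, so its calls are not read. At 3 dpi Hbb-y was at least 3.33-fold higher than in Ctrl and at least 1.90-fold higher than at 1 dpi. Ahsp, the chaperone of free α-globin, fell by 7.62 ± 0.18 at 1 dpi and by 2.63 ± 0.18 at 3 dpi, and rose by 4.99 ± 0.18 between both days. Hba-a1 was 1.34 ± 0.12 at 1 dpi, a call lost under quantile normalization (0.70), and fell by 1.48 ± 0.12 at 3 dpi against Ctrl. Hbb-b1 was 1.08 ± 0.11 at 1 dpi, not called with median scaling (0.76), and fell by 1.82 ± 0.11 at 3 dpi. Hbb-b2 was 0.88 ± 0.15 and Hbb-bt 0.08 ± 0.11 at 1 dpi, neither of them called. At 3 dpi against Ctrl both were called lower (-1.85 ± 0.15 and -1.72 ± 0.11).

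The summed level of the globin list was 22293%, 18838.5% and 19848% in Ctrl, 51737%, 42215% and 41406% at 1 dpi and 7090.3%, 7198% and 6636% at 3 dpi, with Hba-a1 the brightest, Hba-a1 and Hba-a2 together making up most of the sum on every array, and Hbb-y not well above background in Ctrl or at 1 dpi. Of 12 genes of haem synthesis, with medians of -0.27, -0.37 and 0.21, or -0.51, -0.48 and 0.32 relative to all genes, 0 were called at 1 dpi by limma and 0 by the methods' t-test with adjustment, with 9 at an unadjusted and 9 at an adjusted p under 0.05. Alas2, the erythroid enzyme of the first step, fell by 2.26 ± 0.12 at 3 dpi against Ctrl and by 2.98 ± 0.12 from 1 to 3 dpi, the 1 call of the list in each. How far these red-cell transcripts share a source with the 10 genes was not tested.

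Most relatives of the members were not called, which is equally true of all genes tested. On day 1 the call rule was met upward by 12.3% of all genes and downward by 2.87%. For 3 dpi against Ctrl those shares stood at 6.98% and 1.82%, and from 1 to 3 dpi at 3.97% and 4.82%. The family counts below stand beside these shares. At 1 dpi an adjusted p under 0.05 was found for 6 of 15 Klf genes, 7 of 11 carbonic anhydrases, 7 of 9 Slc38 transporters, 1 of 3 intercellular adhesion molecules and 5 of 17 claudins, the members being left out, beside 55.9% of all genes. Of 15 other Klf genes 1 was called lower at 1 dpi and 1 higher from 1 to 3 dpi, both times Klf15, chosen for mention after its values were seen, which was not well above background at 1 dpi and was at least 2.08-fold lower there and at least 4.16-fold higher at 3 than at 1 dpi. At 3 dpi against Ctrl 0 Klf genes were called by limma and 0 by the methods' t-test with adjustment, with 8 at an unadjusted and 8 at an adjusted p under 0.05. Their medians were -0.03, -0.05 and 0.11, or -0.28, -0.16 and 0.22 relative to all genes.

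Of 11 other carbonic anhydrases 2 were called higher at 1 dpi, Car14 (1.43 ± 0.23, or 0.83 by its other probe) and Car10 (1.15 ± 0.23, lost with median scaling at 0.83). At 3 dpi against Ctrl 2 were called higher, Car3, which rose by 2.03 ± 0.09, and Car5b, which was not well above background in Ctrl and was at least 1.49-fold higher. Car5b passed the filter only through the 3 dpi arrays and its bound is under 2-fold, so its call is not read as a change. From 1 to 3 dpi Car3 rose by 1.83 ± 0.09 and Car14 was -1.08 ± 0.23, a call lost with median scaling (-0.89). The 3 probes of Car3 ranged from 0.93 to 2.03 at 3 dpi against Ctrl and from 0.17 to 1.83 from 1 to 3 dpi. The medians were 0.64, 0.35 and -0.19, or 0.39, 0.24 and -0.08 relative to all genes.

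Of 9 other Slc38 transporters 1, Slc38a11, was called higher against Ctrl on both days, well above background on 0 of 3 arrays in Ctrl, 1 of 3 at 1 dpi and 3 of 3 at 3 dpi. It was at least 1.11-fold higher at 3 dpi than in Ctrl, and for 1 dpi no bound is given. Slc38a11 passed the filter only through the 3 dpi arrays, so neither call is read as a change. From 1 to 3 dpi 0 were called by limma and 0 by the methods' t-test with adjustment, with 5 at an unadjusted and 3 at an adjusted p under 0.05, and the medians were 0.31, 0.06 and 0.09, or 0.07, -0.05 and 0.20 relative to all genes. Of 3 other intercellular adhesion molecules 1 was called, Icam1 at 1 dpi (1.095 ± 0.08, not called with median scaling at 0.78), with 0 called in the later comparisons by limma and 0 by the methods' t-test with adjustment, and 2 and 1 at an unadjusted and 1 and 0 at an adjusted p under 0.05. Their medians were 0.37, 0.21 and -0.17, or 0.13, 0.09 and -0.06 relative to all genes.

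Of 17 other claudins 1 was called higher at 1 dpi, Cldn4 (1.38 ± 0.34, not called under quantile normalization at 0.85). At 3 dpi against Ctrl 2 were called higher, the endothelial Cldn5 (2.08 ± 0.10) and Cldn10 (1.60 ± 0.17), and from 1 to 3 dpi these rose again, by 1.21 ± 0.10 and by 1.42 ± 0.17, while Cldn4 was lower (-1.09 ± 0.34, not called with median scaling at -0.90). After normexp with quantile normalization neither Cldn10 call holds (0.80 and 0.92). The medians were 0.67, 0.34 and -0.02, or 0.42, 0.23 and 0.09 relative to all genes.

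Markers of several other cell types were called after irradiation, while megakaryocyte markers, by the probe that stands for each gene, all stayed under the call rule. The marker counts below stand beside 12.3% of all genes called higher and 2.87% lower at 1 dpi. At 3 dpi against Ctrl these shares were 6.98% and 1.82%, and from 1 to 3 dpi 3.97% and 4.82%. Of the 14 megakaryocyte markers 0 were called in any of the comparisons by limma and 0 by the methods' t-test with adjustment, with 7, 6 and 9 at an unadjusted and 6, 6 and 8 at an adjusted p under 0.05 at 1 dpi and 3 dpi against Ctrl and from 1 to 3 dpi (the latter beside 55.9%, 32.0% and 44.6% of all genes). Their summed level was 13811%, 12406% and 12258% in Ctrl, 13676%, 12586% and 12380% at 1 dpi and 14795%, 14674% and 14493% at 3 dpi. Vwf has 3 probes, and the one that stands for it gave -0.05 at 3 dpi against Ctrl and -0.11 from 1 to 3 dpi. Another Vwf probe gave -1.34 and -1.14, which is beyond 2-fold.

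B-cell precursor markers were lower after irradiation. Of 12 markers 10 were called lower at 1 dpi and 11 at 3 dpi against Ctrl, and 1, Vpreb2, higher at 1 dpi (1.78 ± 0.14). The summed level was 3028%, 2815% and 2886% in Ctrl, 780.4%, 708% and 729% at 1 dpi and 609%, 591% and 587% at 3 dpi, with Cd79b the brightest. Vpreb3 fell by 5.42 ± 0.09 at 1 dpi and was called at -3.96 ± 0.09 at 3 dpi, and from 1 to 3 dpi 3 markers were called higher and 2 lower. Rag1 was not well above background on any irradiated array. Its call from 1 to 3 dpi (-1.01), among the 2 lower, is therefore not read as a change. Rag1 is also among the 10 and the 11 called lower. Against Ctrl it was at least 1.85-fold lower at 3 dpi, and for 1 dpi no bound is given. Pax5, not called, was 0.56 ± 0.13 at 1 dpi and -0.17 ± 0.13 at 3 dpi against Ctrl, while its other probe gave -5.66 and -3.92.

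Of 10 stem and progenitor markers 4 were called lower at 1 dpi and 5 at 3 dpi against Ctrl, and 1 higher and 2 lower from 1 to 3 dpi. Ly6a had values of 0.94 ± 0.07 at 1 dpi and 0.39 ± 0.07 at 3 dpi against Ctrl and Slamf1 of -0.58 ± 0.11 and 0.58 ± 0.11, all under 2-fold with an adjusted p under 0.05. Their summed level was 5436%, 5319% and 5178% in Ctrl, 3877%, 3859% and 3932% at 1 dpi and 2401%, 2331% and 2252% at 3 dpi, with Cd34 the brightest, and Meis1 fell by 1.20 ± 0.06, with a probe at -0.59, and by 2.24 ± 0.06. Of 16 proliferation genes, Birc5 the brightest, 0 were called in each comparison by limma and 0 by the methods' t-test with adjustment, with 10, 5 and 13 at an unadjusted and 9, 3 and 12 at an adjusted p under 0.05. Their summed level was 27193%, 24301% and 23725% in Ctrl, 21296%, 21769.5% and 22080% at 1 dpi and 28699%, 27646% and 26997% at 3 dpi.

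**Figure D4:**
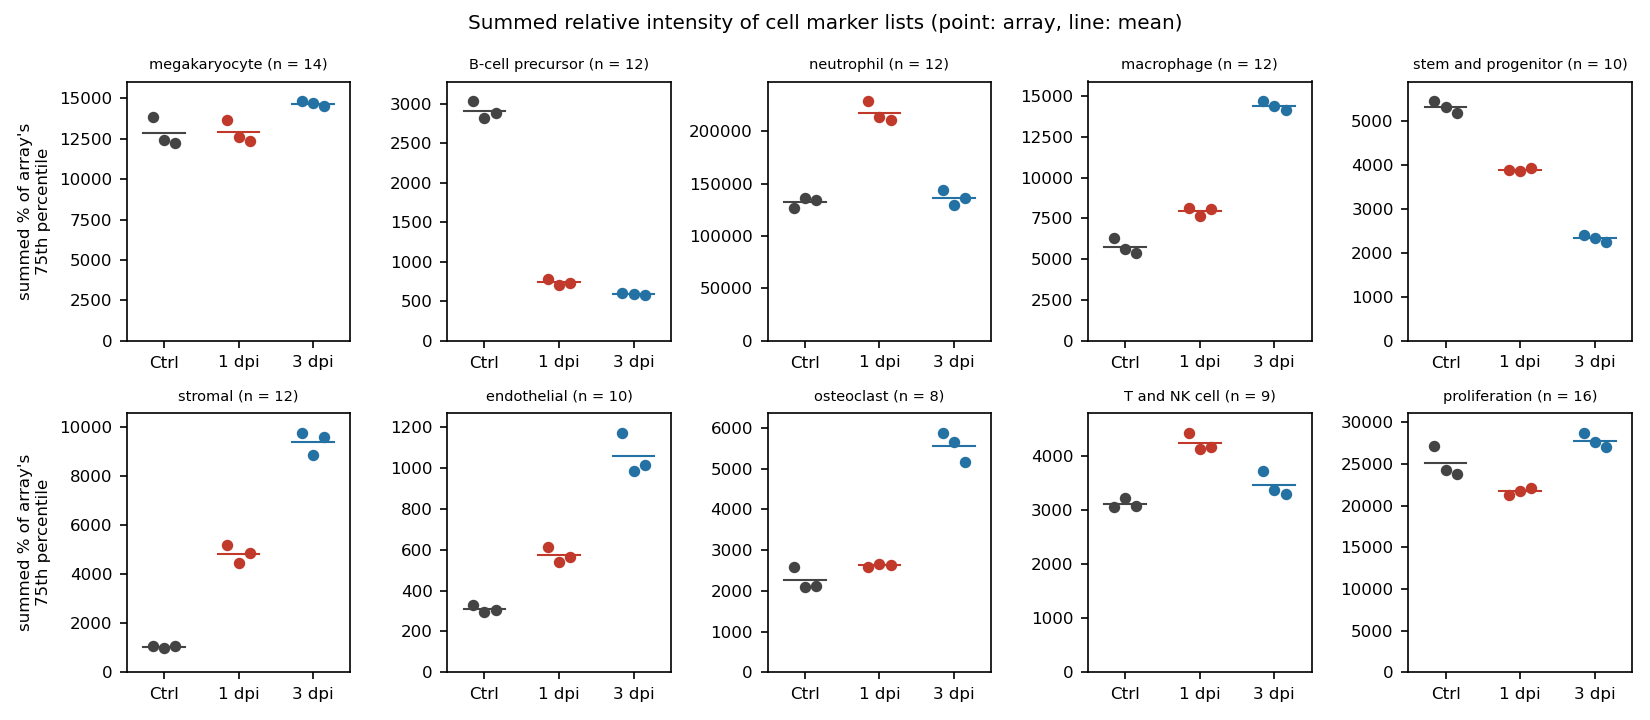
Summed level of each cell marker list and of the proliferation genes on each array, as a percentage of the array's 75th percentile (linear axis from 0), with a line at the mean of each group. B-cell precursor markers drop from 2910% in Ctrl to 739% at 1 dpi and 596% at 3 dpi, while stromal markers go from 1045% to 4826% and 9409%.

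Called markers of stromal cells and macrophages were mostly higher. Of 12 stromal markers, Cxcl12 the brightest, 8 were called higher at 1 dpi, 8 at 3 dpi against Ctrl and 6 from 1 to 3 dpi. The summed level was 1056%, 1015% and 1065% in Ctrl, 5173%, 4455% and 4849.7% at 1 dpi and 9758%, 8874% and 9597% at 3 dpi. Of 12 macrophage markers, Csf1r the brightest, 4 were called higher and 1, Cd163, lower at 1 dpi, 9 higher at 3 dpi and 7 higher from 1 to 3 dpi, with sums of 6277%, 5611% and 5397%, then 8161%, 7666% and 8065%, then 14663%, 14411% and 14169%. At least 1 of the macrophage calls from 1 to 3 dpi is lost after quantile normalization.

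Of 10 endothelial markers, Stab2 the brightest, 4 were called higher at 1 dpi, 7 at 3 dpi and 2 from 1 to 3 dpi, with mean sums of 311%, 572% and 1056% in Ctrl, at 1 dpi and at 3 dpi. Of 8 osteoclast markers, Acp5 the brightest, 4, 6 and 4 were called higher, with mean sums of 2271%, 2623.5% and 5564%. Of 9 T and NK cell markers, Nkg7 the brightest, 1, 3 and 2 were called higher, with mean sums of 3123%, 4244% and 3459%. These counts are 11.1%, 33.3% and 22.2%, beside 12.3%, 6.98% and 3.97% of all genes, and the day 1 share lies under that of all genes. At least 2 of the 4 osteoclast calls at 1 dpi and the 1 T and NK cell call at 1 dpi are lost with median scaling.

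Of 12 neutrophil markers, Mpo the brightest, 3 were called higher at 1 dpi, and 0 in the other comparisons by limma and 0 by the methods' t-test with adjustment, with 2 and 11 at an unadjusted and 1 and 10 at an adjusted p under 0.05. Their summed level was 126745%, 135980% and 134034% in Ctrl, 228295%, 213235% and 210583% at 1 dpi and 143727%, 129378% and 136094% at 3 dpi. S100a8 (1.14) and S100a9 (1.02) were among the 3, and both calls are lost with median scaling (0.83 and 0.70). The third, at 1.004, had a smaller change than S100a9. Median scaling shifts all genes alike, so that call is lost as well. What share other cells had in the values of the 10 genes was not tested.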

How the data were processed

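RNA of 9 samples (Ctrl, 1 dpi and 3 dpi, 3 each) was read on Agilent 1-colour arrays labelled with Cy3. The authors deposited the background-subtracted spot intensity of each array from Agilent Feature Extraction 10.7.1.1, and a matrix of log2 values with 1 entry for each gene name on each array. The deposited log2 columns have medians of 5.84, 5.84 and 5.83 in Ctrl, 5.80, 5.80 and 5.79 at 1 dpi and 5.86, 5.86 and 5.87 at 3 dpi. Their scale is log2 and their direction is that of the intensity, since each column correlated best with its own array, while how the arrays were brought to a common level stays unknown. Of the 27275 gene names there, 27068 are on the array and 27050 could be tied to 1 probe within 0.1. The matrix served as an alternative, with 21825 genes tested. The study's methods describe an Affymetrix chip, so their array steps were not taken as those of these files.

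Of 62976 spots 3671 control spots were left out, spots marked as outliers were dropped (which removed 20 probes), and spots of 1 probe were averaged on the log2 scale. Of 56605 probes, 32984 were named through RefSeq accessions and 23601 kept the name in the files. Main values are log2 intensity minus the 75th percentile of the array over all spots besides controls. A first version took the percentile over averaged probes. It was changed to spots after those results were seen, and the first version is kept as an alternative. A probe was kept where some group had it well above background on each of its 3 arrays (44300 probes), and the probe with the highest mean stood for its gene, with disagreeing probes of the members given in the text. Other genes in the lists can have probes that disagree.

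Comparisons used limma 3.58.1 under R 4.3.3, as 1 model with a mean per group and a shared spread, and p-values were adjusted over all 29410 genes tested by Benjamini-Hochberg. The procedure was tested on simulated data. The array files were loaded by version 1.17.8 of data.table. Summaries and figures come from pandas 2.3.3 and matplotlib 3.10.9 under Python 3.11.15. Alternatives covered the scaling (array median, quantile, normexp with an offset of 50, the deposited matrix), the filter, the choice of probe, the minimum fold, the unpaired 2-sample t-test that the methods name (called the methods' t-test), the samples in the fit, blocks and leaving out each array. Genes named are the members, up to 3 called genes with the largest change in each list of erythroid genes or of relatives of the members, Gata1, Tal1, Nfe2, Jak2 and Stat5a, and for marker lists the brightest gene, undetected markers and those 2 called markers that changed most. The 10 genes closest to the mean of the members were named too. Ly6a, an uncalled stem and progenitor marker, was named outside these rules, as were Hbb-bt, Pax5 and Vwf. Some genes that these choices pick are not reported here. The members and the lists were chosen with earlier results of these data known.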

Additional observations from a re-analysis of the deposited data

Results flagged for a closer look

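Of the 9 genes other than Slc38a5, 8 had an adjusted p under 0.05 for 3 dpi against 1 dpi, beside 44.6% of all genes, and 3 of them differed by at least 2-fold as well, beside 3.97% of all genes higher and 4.82% lower. Cldn13 was higher at 3 dpi by 1.99 on the log2 scale and Epor by 1.13, while Hemgn, by its repeat probe, differed by -1.26. The Hemgn probe without the repeat gave 0.09, and the dim Epor probe gave 0.29. Trim10, among the 8, was well above background on 0 of 3 arrays at 1 dpi, so nothing is read from its p.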

How the results depend on the processing

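Before the array files were opened 22 other ways of analysis were set, 9 of which leave out 1 array, and 3 more were chosen after seeing the data (repeat probes left out, values relative to the median of all genes, and the percentile over averaged probes). Of the member values under them 663 kept sign and call or, untested, moved by under 1 SD, 44 untested ones moved by 1 SD or more, 13 changed sign, 18 passed the threshold anew and 6 no longer passed it. At 1 dpi the signal limits Trim10, Cldn13, a Klf1 probe and a Car1 probe, which were not well above background on all 3 arrays. Trim10 and Cldn13 have no value where a gene must be well above background on all 9 arrays. Except where genes, probes or arrays are left out by construction, the cause was not tested.

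With arrays scaled to the array median, the member median, 1 dpi against Ctrl, was -2.43. The member median, 3 dpi against Ctrl, was -1.83, and the member median, 3 dpi against 1 dpi, was 0.64. Signs changed for Trim58 (-0.014), Car3 (-0.11) and Cldn10 (-0.13) at 1 dpi, for Jak2 (-0.064) and S100a9 (-0.024) at 3 dpi against Ctrl, and between both days for Icam4 (0.017), Gata1 (0.066), Nfe2 (0.023), Stat5a (0.15) and Tspo2 (0.093). Values relative to the median of all genes gave -2.36, -1.82 and 0.56 for these medians, with 54.9%, 71.8% and 58.1% of called genes higher. Signs changed for Car3 (-0.046) and Cldn10 (-0.065) at 1 dpi, Jak2 (-0.053) and S100a9 (-0.013) at 3 dpi against Ctrl, and Stat5a (0.073) and Tspo2 (0.012) between both days.

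Under quantile normalization the member median, 1 dpi against Ctrl, was -2.26 and the member median, 3 dpi against 1 dpi, was 0.64. Signs changed for Trim58 (-0.11), Cldn10 (-0.28) and Cd3g (-0.063) at 1 dpi and for Cldn4 (-0.014) at 3 dpi against Ctrl. Normexp with quantile normalization called 1667, 1147 and 1088 genes, and 1 member between both days, with member medians of -1.78 and -1.46 against Ctrl. Signs changed for Trim58 (-0.078), Cldn10 (-0.12) and Cd3g (-0.038) at 1 dpi and for Cldn4 (-0.017) at 3 dpi against Ctrl.

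The deposited matrix, in which 5 members were called between both days (Trim10 and Car1 by probes not well above background at 1 dpi), gave -2.67 as the member median, 1 dpi against Ctrl, -1.89 as the member median, 3 dpi against Ctrl, and 1.20 as the member median, 3 dpi against 1 dpi. At 1 dpi signs changed for Hemgn (-2.19), Trim58 (-0.11), Jak2 (0.78), Stat5a (0.67), Dmtn (-2.01), Cldn10 (-0.28) and Cd3g (-0.063). They changed at 3 dpi against Ctrl for Hemgn (-1.90), Dmtn (-1.18), Car14 (-0.50) and Cldn4 (-0.012), and between both days for Hemgn (0.30), Jak2 (-0.76) and Dmtn (0.83). With repeat probes left out Hemgn changed sign in all 3 comparisons (-2.01, -1.92 and 0.089).

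With the mean of the probes of a gene, the member median, 1 dpi against Ctrl, was -2.43 and the member median, 3 dpi against 1 dpi, was 0.83. At 1 dpi signs changed for Hemgn (-0.28), Jak2 (0.36), Stat5a (0.060), Runx1 (0.045), Erfe (0.14), Dmtn (-0.063) and Slamf1 (0.13). At 3 dpi against Ctrl they changed for Hemgn (-0.86) and Dmtn (-0.44), and between both days for Jak2 (-0.32), Sox6 (-0.44) and Runx1 (-0.17).

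With no filter on dim probes, for genes called, 3 dpi against 1 dpi, the count was 4489, 26.7% of them higher. With genes well above background on all 9 arrays only, the member median at 1 dpi was -1.80, and Erfe changed sign at 1 dpi (0.97) and between both days (-0.37). With no minimum fold 16443, 9416 and 13125 genes, and 8 members between both days, were called, and 62.3% and 52.7% of the genes called against Ctrl were higher. Among the 8, Trim10 was set against a 1 dpi signal not well above background.

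With 1 array left out, member medians ran from -2.15 to -2.04 at 1 dpi, from -1.76 to -1.61 at 3 dpi against Ctrl and from 0.41 to 0.51 between both days. The slide as a block, which equals leaving out Ctrl replicate 1, gave -2.04 and -1.61, and -0.038 for Cldn4 at 3 dpi against Ctrl, a change of sign (with 1 array left out Cldn4 ran from -0.038 to 0.64). Between both days Stat5a ran from -0.096 to 0.0036, without 3 dpi replicate 3.

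The replicate numbers do not pair the samples, since donors differed and the deviations of same-numbered arrays from their group means correlated between -0.11 and 0.13 across genes. With the replicate block the count of genes called, 1 dpi against Ctrl, was 4273, of genes called, 3 dpi against Ctrl, 2498 and of genes called, 3 dpi against 1 dpi, 2494. Member counts stayed at 8, 6 and 3 and member medians at -2.11, -1.71 and 0.45.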
